A study of Mus musculus with 10 samples.

Results

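The genes that copy DNA in S phase were examined in the uterus of pregnant mice at gestation day (GD) 3.5, with and without *Arid1a* deletion in the endometrial epithelium. The 44 genes were chosen by name for their role in replication: 8 genes of origin recognition and licensing, 14 of the replicative helicase and its activation, 15 of the polymerases and the fork, 4 of nucleotide supply and 3 E2F transcription factors. All 44 were found among the 45706 genes of the count table by Ensembl identifier, and all 44 were among the 25146 genes that passed the low-count filter. Poly(A) RNA-seq libraries had been made from whole uterine tissue of 10 adult females of mixed background, littermates where possible, mated with wildtype males and collected on the third morning after the vaginal plug. The 5 control mice carried floxed *Arid1a* on both alleles and no Cre (*Arid1a* f/f), and the 5 conditional knockout mice (cKO) carried the same floxed alleles together with 1 copy of iCre at the lactoferrin locus (*Ltf* iCre/+ *Arid1a* f/f), which is active in the adult endometrial epithelium. ARID1A is a subunit of the SWI/SNF chromatin remodeling complex. Each library came from part of 1 uterus, and its cell types were not separated. Stroma, muscle, vessels and leukocytes, in which the Cre is not meant to act, therefore contribute to every value. The study names reported activity of this Cre in neutrophils and further myeloid cells as a limitation.

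Before a cell divides, the origin recognition complex marks replication origins and, with CDC6 and CDT1, loads the MCM helicase on them, a step called licensing. In S phase the kinase CDC7 with DBF4 and the proteins MCM10, CDC45 and GINS activate the helicase, primase and polymerase alpha lay down primers, the clamp loader RFC places the PCNA ring, and polymerases delta and epsilon extend the strands that FEN1 and LIG1 finish. Ribonucleotide reductase, thymidylate synthase and thymidine kinase supply the nucleotides, and E2F factors are known activators of many of these genes. In the mouse uterus, luminal epithelial cells proliferate early after mating under estrogen and have largely stopped by GD 3.5, when progesterone acts and the stroma proliferates in their place.

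The libraries held 59296537 to 72702411 counts each. *Arid1a* itself was at 251, 210, 213, 192 and 197 CPM (counts scaled to library size) in control uteri 1 to 5 and at 208, 191, 179, 182 and 165 CPM in cKO uteri 1 to 5, and the groups overlapped (log2 fold change −0.20, standard error 0.09, edgeR adjusted p = 0.201). *Ltf*, the locus that holds the Cre, was at 2.22 to 11.7 CPM in the controls and at 23.6 to 2831 CPM in the cKO uteri (log2 fold change 7.23, standard error 1.36, edgeR adjusted p = 0.0092). Here and below, CPM are scaled by edgeR's trimmed mean of M-values (TMM), a fold change is cKO over control, and a gene is said to rise or fall only if its edgeR quasi-likelihood p, Benjamini-Hochberg adjusted over the 25146 genes, was under 0.05. By that rule 2438 genes differed, and the median log2 fold change of all tested genes was 0.03.

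Transcripts of 14 of the 44 replication genes rose in the cKO uteri and none fell. The 14 were *Cdc6*, *Cdt1* and *Orc6* among the licensing genes, *Mcm2*, *Mcm10*, *Gins1* and *Gins2* among the helicase genes, *Pcna*, *Rfc2*, *Rfc3*, *Rfc5*, *Pold1* and *Lig1* at the fork, and *E2f2*. That is 31.8% of the 44, where 5.19% of all tested genes were called higher and 4.51% lower. The increases ran from 0.36 in *Rfc2* to 1.07 in *Cdc6* on the log2 scale. Over all 44 the median log2 fold change was 0.44, a fold of 1.36, with 42 genes fitted above 0 and only *Orc3* (−0.09) and *Orc5* (−0.07) below, whereas 52.7% of all tested genes were fitted above 0. Without adjustment 32 of the 44 had an edgeR p under 0.05, all of them higher, where 14.3% of all tested genes were higher and 11.9% lower at that level. DESeq2 called 22 of the 44 higher and 0 lower, where it called 9.88% of the genes it gave an adjusted p higher and 9.15% lower.

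In 13 of the 44 genes every cKO uterus lay above every control uterus (29.5%, against 5.53% of all tested genes), in none did every cKO uterus lie below every control (5.16% of all tested genes), and in 31 the groups overlapped. The 13 were 12 of the genes that rose, all but *Cdt1* and *Mcm10*, together with *Mcm7*. Since whole uterine tissue was sequenced, more cells in S phase and more of these transcripts per cell cannot be told apart.

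**Figure D1:**
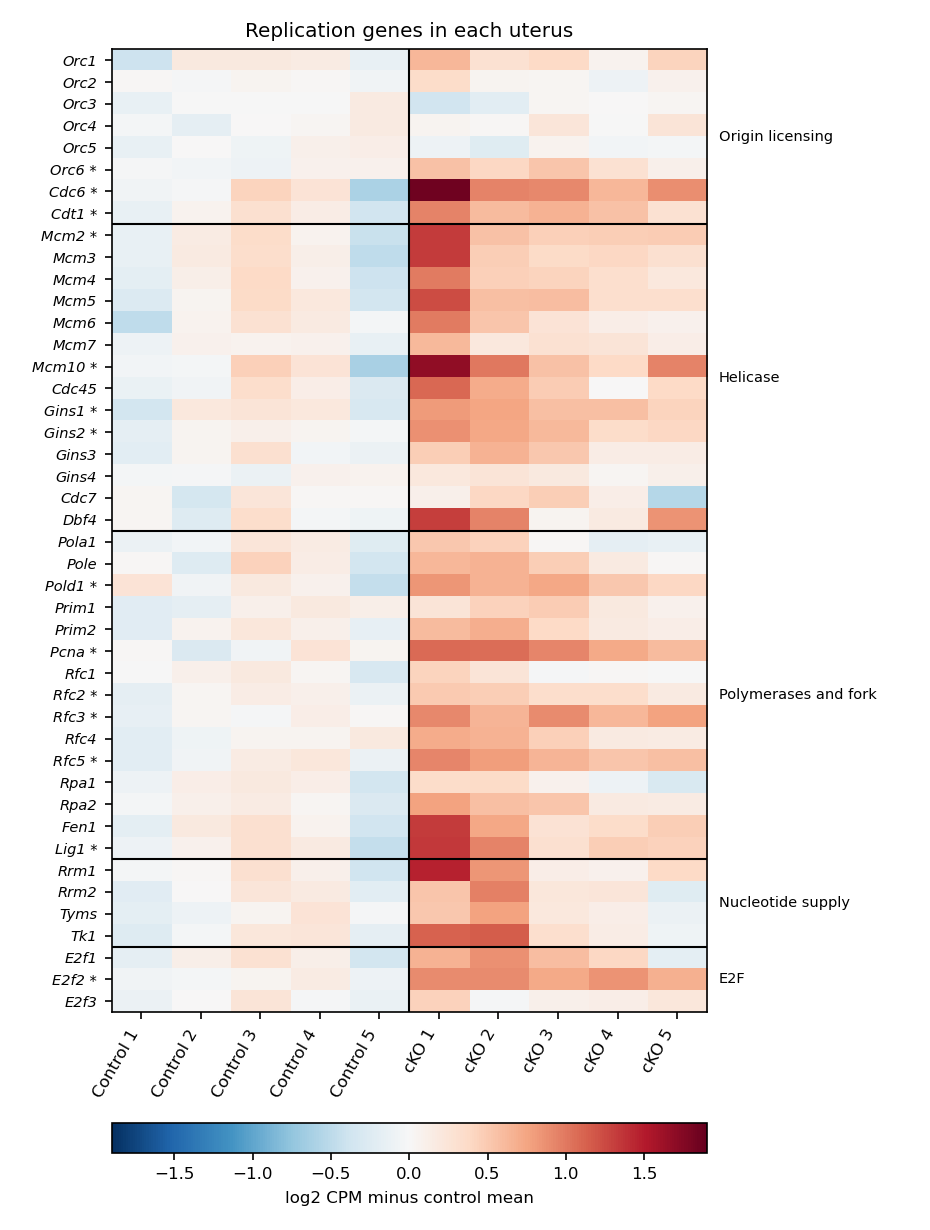
Each row is 1 of the 44 genes and each column 1 uterus (cKO: *Ltf* iCre/+ *Arid1a* f/f), and the colour gives the log2 CPM minus the mean of the 5 controls. An asterisk marks the 14 genes with an edgeR adjusted p under 0.05. cKO uteri 1 and 2 are the reddest columns, with 40 of 44 genes above every control in each. The share of all tested genes above every control in these uteri was not counted.

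The 5 cKO uteri were not alike. The number of genes above every control was 40 in cKO uterus 1, 40 in cKO uterus 2, 31 in cKO uterus 3, 20 in cKO uterus 4 and 22 in cKO uterus 5. The median of the 44 genes' deviations from the control mean was 0.73, 0.62, 0.40, 0.18 and 0.18 on the log2 scale in cKO uteri 1 to 5, while the 5 controls ran from −0.15 to 0.22. Uteri 4 and 5 of the cKO group thus overlapped the highest control on this summary. cKO uterus 1 had the highest level of all 10 uteri for 30 genes and cKO uterus 2 for 9. The matching shares of all tested genes in single uteri were not counted, here or below. Such counts therefore do not show whether the replication genes differ from other genes. The count of genes that rose varied with the libraries used. Leaving out each uterus in turn gave 5 (without control uterus 2) to 17 (without cKO uterus 5) of the 44. Leaving out cKO uteri 1 and 5 together gave 11. Over all tested genes, 594 of 25133 were called higher without control uterus 2 and 1236 of 25047 without cKO uterus 5. Without cKO uteri 1 and 5 it was 1253 of 25046, and with all 10 uteri 1305 of 25146.

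Markers of other cell types also differed between the groups. Over all tested genes, edgeR called 5.19% higher and 4.51% lower. DESeq2 called 9.88% higher and 9.15% lower of the genes it gave an adjusted p. The epithelial markers summed to 777 to 1000 CPM in the controls and to 1139 to 2799 CPM in the cKO uteri, with the highest sum in cKO uterus 1, and of the 11 markers 8 rose and 1 fell (*Foxa2*, a factor of uterine glands, log2 fold change −1.13). Leaving out 1 uterus at a time left 3 to 9 of the 11 called higher. The fewest were called without control uterus 3, where 617 of 25181 tested genes were called higher. All 5 endothelial markers fell (sums of 672 to 957 CPM in the controls and 309 to 456 CPM in the cKO uteri). Of 8 stromal markers 1 fell (*Dcn*), and DESeq2 called 2 lower. Of the 8, 7 were fitted below 0, with a median log2 fold change of −0.34. In 2 of them every cKO uterus lay below every control (5.16% of all tested genes). By edgeR 0 of 6 myometrial markers were called, with 1 of the 6 at an unadjusted edgeR p under 0.05 and 1 called lower by DESeq2. All 6 were fitted below 0, with a median log2 fold change of −0.48. The 10 leukocyte markers summed to 259 to 502 CPM in the controls and 352 to 1924 CPM in the cKO uteri, highest in cKO uterus 5. By edgeR 1 of them, *Cd3e*, rose, and DESeq2 called 3 higher. Of the 10, 9 were fitted above 0 and 6 had an unadjusted edgeR p under 0.05. Their median log2 fold change was 0.80, and 0.09 without cKO uterus 5. No defining marker of uterine epithelium, stroma or muscle was at 0. The part of these differences in the levels of the replication genes was not tested.

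**Figure D2:**
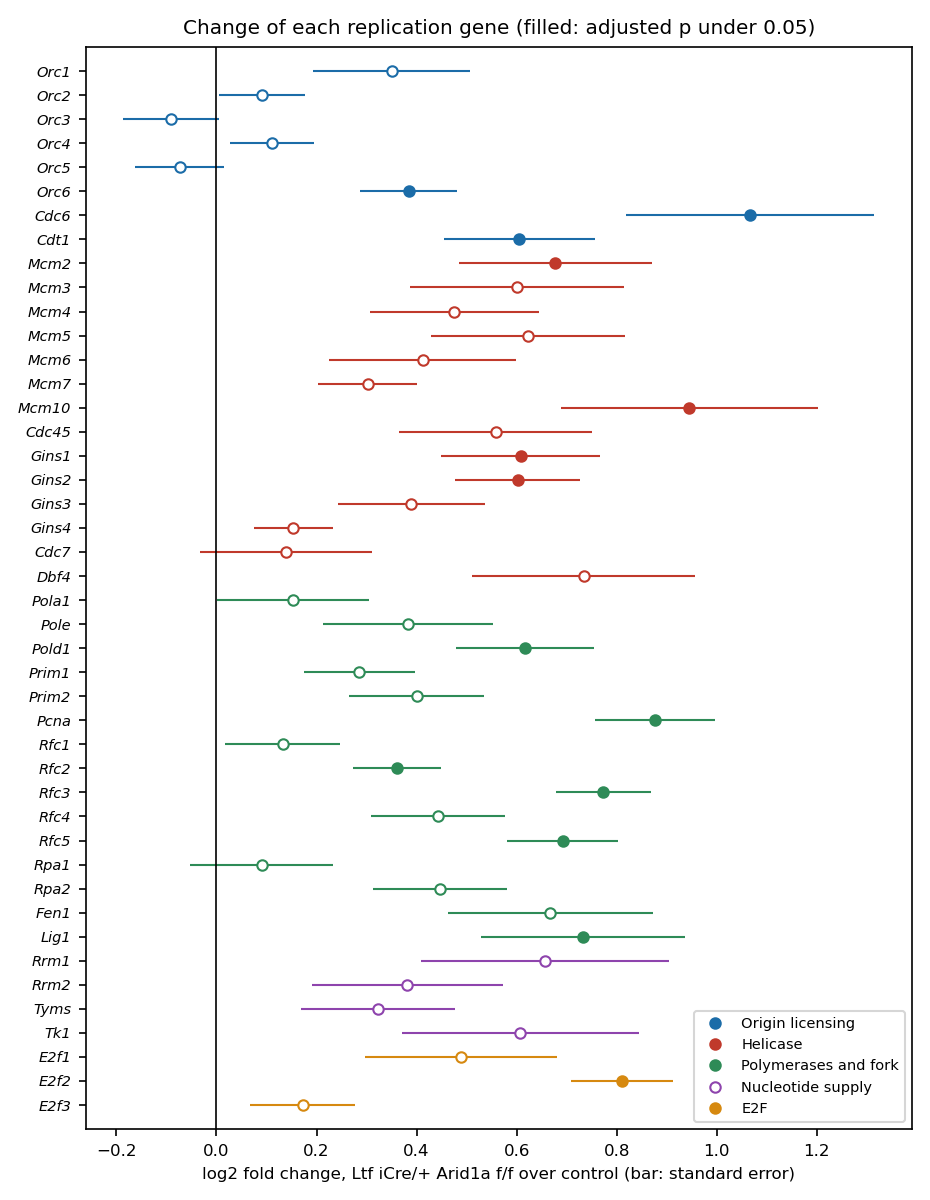
Points are the fitted log2 fold changes of the 44 genes (*Ltf* iCre/+ *Arid1a* f/f over control, 5 uteri each), bars are standard errors, colours are the roles and filled points have an edgeR adjusted p under 0.05. All points but *Orc3* and *Orc5* lie above 0, and the largest are *Cdc6* (1.07) and *Mcm10* (0.95).

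Of the 8 genes of origin recognition and licensing, 3 rose (37.5%), and their median log2 fold change, 0.23, was the lowest of the 5 roles. *Cdc6*, which with the origin recognition complex recruits the helicase, was at 9.51, 9.85, 13.4, 11.99 and 6.62 CPM in control uteri 1 to 5 and at 35.9, 19.2, 18.8, 15.4 and 18.4 CPM in cKO uteri 1 to 5. The groups did not overlap, with cKO uterus 1 standing well above the other four. The control mean was 10.3 ± 2.60 CPM and the cKO mean 21.5 ± 8.17 CPM (SD, n = 5), so that the log2 fold change was 1.07 (standard error 0.25, edgeR adjusted p = 0.0221). *Cdt1*, the partner of CDC6 in loading the helicase, was at 13.7, 15.9, 18.9, 16.8 and 11.8 CPM in the controls and 29.3, 23.1, 24.0, 22.4 and 18.5 CPM in the cKO uteri. Only cKO uterus 5 fell below the highest control, and the log2 fold change was 0.61 (standard error 0.15, edgeR adjusted p = 0.0292, exact permutation p = 0.0159).

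*Orc6*, a subunit of the origin recognition complex, had the highest length-scaled control level of these 8 genes, at 13.2 RPKM (CPM divided by exonic length in kilobases). It was at 32.2, 31.5, 30.5, 34.4 and 34.6 CPM in the controls and at 48.0, 42.9, 47.0, 40.02 and 35.0 CPM in the cKO uteri. cKO uterus 5 exceeded the highest control by a narrow margin and the groups did not overlap (log2 fold change 0.38, standard error 0.10, edgeR adjusted p = 0.03). The other 5 subunits of the complex did not pass the test: their log2 fold changes were 0.35 for *Orc1* (edgeR adjusted p = 0.182), 0.09 for *Orc2*, −0.09 for *Orc3*, 0.11 for *Orc4* and −0.07 for *Orc5*. Without control uterus 2, *Cdc6* missed the threshold (edgeR adjusted p = 0.0579). *Cdt1* missed it in 5 of the 10 fits that left out 1 uterus, those without control uterus 1 (0.062), 2 (0.0641), 4 (0.0537) or 5 (0.0584) or cKO uterus 1 (0.0548), and *Orc6* in 6 of them, those without control uterus 1 (0.0592), 2 (0.0778), 3 (0.0806) or 4 (0.0565) or cKO uterus 1 (0.0566) or 3 (0.0586).

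Among the 14 helicase genes 4 rose (28.6%) and all 14 were fitted above 0, with a median log2 fold change of 0.58. *Mcm2*, a subunit of the MCM ring, was at 43.4, 53.4, 60.8, 49.8 and 35.6 CPM in the controls and 120, 70.3, 65.5, 65.9 and 66.7 CPM in the cKO uteri. The groups did not overlap, yet cKO uteri 2 to 5 lay close together and cKO uterus 1 far above them. The group means were 48.6 ± 9.61 and 77.7 ± 23.8 CPM (SD, n = 5), for a log2 difference of 0.68 (standard error 0.19, edgeR adjusted p = 0.0487). *Mcm10*, which takes part in activating the helicase, was at 10.6, 10.7, 15.0, 13.1 and 7.18 CPM in the controls and 35.4, 22.0, 16.1, 14.3 and 21.2 CPM in the cKO uteri. Its lowest cKO value, in uterus 4, lay below control uterus 3, and the log2 fold change was 0.95 (standard error 0.26, edgeR adjusted p = 0.0406, exact permutation p = 0.0159).

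GINS is a complex of 4 proteins that joins CDC45 and MCM in the active helicase. *Gins1* was at 5.33, 7.81, 8.08, 7.78 and 5.51 CPM in the controls and 11.9, 11.4, 10.1, 10.1 and 9.14 CPM in the cKO uteri, without overlap (log2 fold change 0.61, standard error 0.16, edgeR adjusted p = 0.0355). *Gins2* was at 9.16, 10.6, 10.9, 10.7 and 10.05 CPM in the controls and 18.7, 17.0, 15.7, 13.1 and 13.4 CPM in the cKO uteri, again without overlap (log2 fold change 0.60, standard error 0.13, edgeR adjusted p = 0.0138). The 5 controls of *Gins2* lay close together (SD 0.705 CPM), and its call held in all 10 fits that left out 1 uterus. The remaining subunits were not called, with log2 fold changes of 0.39 (*Gins3*, edgeR adjusted p = 0.118) and 0.15 (*Gins4*, edgeR adjusted p = 0.245). Exons of *Gins2* overlap those of *Gse1* on the opposite strand over 67.3% of their length. *Gse1* was at 52.3 and 54.3 CPM on average in the 2 groups, and its log2 fold change was 0.05.

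The rest of the MCM ring did not pass the test. *Mcm4* had the highest length-scaled control level of the helicase genes (21.6 RPKM) and was at 67.1, 81.9, 99.0, 80.9 and 58.1 CPM in the controls and 150, 104, 102, 94.7 and 87.4 CPM in the cKO uteri. cKO uteri 4 and 5 lay below control uterus 3, and its log2 fold change of 0.48 (standard error 0.17) had an edgeR adjusted p of 0.0985 and an exact permutation p of 0.0238. The log2 fold changes of the others were 0.60 for *Mcm3* (edgeR adjusted p = 0.1), 0.62 for *Mcm5* (0.065), 0.41 for *Mcm6* (0.187) and 0.30 for *Mcm7* (0.0766). *Mcm7* ran from 73.1 to 85.1 CPM in the controls and from 87.7 to 123 CPM in the cKO uteri and was the 1 gene of the 44 whose groups did not overlap although it was not called.

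For the activating factors the log2 fold changes were 0.56 for *Cdc45* (edgeR adjusted p = 0.091), 0.73 for *Dbf4* (0.0604) and 0.14 for *Cdc7* (0.672), the kinase that DBF4 activates. *Dbf4* was split within the cKO group: uteri 1, 2 and 5 were at 59.8, 46.6 and 43.8 CPM, above the highest control (30.3 CPM), and uteri 3 and 4 at 25.0 and 27.3 CPM, within the control range. In most of the fits that left out 1 uterus, 3 of the 4 helicase calls were lost. *Mcm2* was called only without cKO uterus 5 (edgeR adjusted p 0.0503 to 0.0999 in the other 9 fits), and *Gins1* likewise (0.0513 to 0.0754 in the other 9 fits). *Mcm10* was called only without cKO uterus 3 or 4 (0.0512 to 0.0926 in the other 8 fits). Conversely, *Dbf4* passed without cKO uterus 3 (0.0249) or 4 (0.0408), *Mcm5* without cKO uterus 5 (0.0497) and *Cdc45* without cKO uterus 4 (0.045). Without cKO uterus 1 the log2 fold change of *Mcm2* was 0.46, that of *Mcm3* 0.35, that of *Mcm6* 0.23 and the median of the 14 helicase genes 0.38.

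At the fork, 6 of the 15 genes rose (40%), with a median log2 fold change of 0.44 and all 15 fitted above 0. *Pcna*, the sliding clamp that holds polymerases on DNA, had the highest length-scaled control level of all 44 genes, at 28.5 RPKM. It was at 68.8, 56.0, 65.1, 81.4 and 70.7 CPM in the controls and 143, 141, 129, 112 and 103 CPM in the cKO uteri. Every cKO uterus stood well clear of the highest control. On average *Pcna* was at 68.4 ± 9.21 CPM in the controls and 126 ± 17.8 CPM in the cKO uteri (SD, n = 5), a log2 difference of 0.88 (standard error 0.12, edgeR adjusted p = 0.00213).

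A processed copy of the gene on chromosome 19, *Pcna-ps2*, matches *Pcna* over 781 bases at 99.2% identity, so that reads may be divided between the pair. *Pcna-ps2* was at 0.853, 17.7, 20.5, 11.4 and 9.40 CPM in the controls and 1.36, 1.17, 1.06, 0.784 and 0.926 CPM in the cKO uteri, that is, at 9.40 CPM or more in 4 of the 5 controls and below 2 CPM in the remaining control and in all 5 cKO uteri. With the counts of the pair added, an alternative chosen after seeing the data, *Pcna* was at 80.4 ± 9.23 and 127 ± 18.04 CPM on average (SD, n = 5), a log2 difference of 0.66 (standard error 0.11, edgeR adjusted p = 0.00631), and the groups still did not overlap. How the *Pcna-ps2* reads arose was not tested.

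The clamp loader RFC has 5 subunits, of which 3 rose. *Rfc3* was at 15.0, 17.0, 16.4, 18.2 and 16.8 CPM in the controls and 31.4, 26.0, 31.0, 25.8 and 28.1 CPM in the cKO uteri. Both groups were tight and lay far apart (16.7 ± 1.16 and 28.5 ± 2.67 CPM, SD, n = 5 each), and *Rfc3* had the lowest adjusted p of the 44 genes (log2 fold change 0.77, standard error 0.09, edgeR adjusted p = 0.00145). *Rfc5* was at 23.2, 25.4, 29.7, 30.9 and 24.7 CPM in the controls and 50.6, 46.3, 41.8, 38.4 and 39.4 CPM in the cKO uteri, without overlap (log2 fold change 0.69, standard error 0.11, edgeR adjusted p = 0.00451). *Rfc2* was at 43.0, 49.4, 52.9, 51.6 and 44.8 CPM in the controls and 67.9, 66.6, 60.7, 60.8 and 54.2 CPM in the cKO uteri. Its groups were separated only narrowly, by cKO uterus 5 and control uterus 3, and its log2 fold change was 0.36 (standard error 0.09, edgeR adjusted p = 0.027). The subunits that were not called had log2 fold changes of 0.44 (*Rfc4*, edgeR adjusted p = 0.0596) and 0.13 (*Rfc1*, 0.524).

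*Pold1*, the catalytic subunit of polymerase delta, was at 28.3, 22.7, 26.9, 25.2 and 17.3 CPM in the controls and 42.4, 37.4, 39.7, 33.8 and 31.3 CPM in the cKO uteri, without overlap (log2 fold change 0.62, standard error 0.14, edgeR adjusted p = 0.0189). *Lig1*, the ligase that seals Okazaki fragments, was at 44.4, 50.0, 58.1, 53.0 and 34.6 CPM in the controls and 120, 90.6, 58.6, 65.7 and 63.9 CPM in the cKO uteri. cKO uteri 1 and 2 were far above the rest, cKO uterus 3 was barely above control uterus 3, and the log2 fold change was 0.73 (standard error 0.20, edgeR adjusted p = 0.0444). *Fen1*, the nuclease that trims the fragments before ligation, had a log2 fold change of 0.67 (edgeR adjusted p = 0.0624). The catalytic subunits of the other replicative polymerases were not called: 0.38 for *Pole* (edgeR adjusted p = 0.178) and 0.15 for *Pola1* (0.583), nor were the primase genes *Prim1* (0.29, adjusted p 0.125) and *Prim2* (0.40, adjusted p 0.0848). The single-strand binding protein genes stood at 0.09 for *Rpa1* (adjusted p 0.746) and 0.45 for *Rpa2* (adjusted p 0.057).

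The calls of *Pcna*, *Rfc3* and *Rfc5* held in all 10 fits that left out 1 uterus. *Pold1* missed the threshold without control uterus 2 (edgeR adjusted p = 0.0556), and *Rfc2* without control uterus 1 (0.0554), 2 (0.0578) or 5 (0.0599). *Lig1* passed only without cKO uterus 3 or 5 (0.0514 to 0.0915 in the other 8 fits). *Rfc4* passed without cKO uterus 4 (0.0482) or 5 (0.0338), *Rpa2* without cKO uterus 4 (0.0456) or 5 (0.0309), and *Fen1* without cKO uterus 3 (0.0473). Without control uterus 2, 3 fork genes were called, in a fit that called 594 of 25133 tested genes higher. *Fen1* shares 78.8% of its exonic bases with *Gm10143* on the opposite strand, which was at 0.180 CPM in the controls, and *Rfc2* shares 15.1% with *Lat2*, also on the opposite strand, whose log2 fold change was 0.61 (edgeR adjusted p = 0.0757). Reads of such pairs cannot be told apart if strand was not used in the counting, which the sources do not state.

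**Figure D3:**
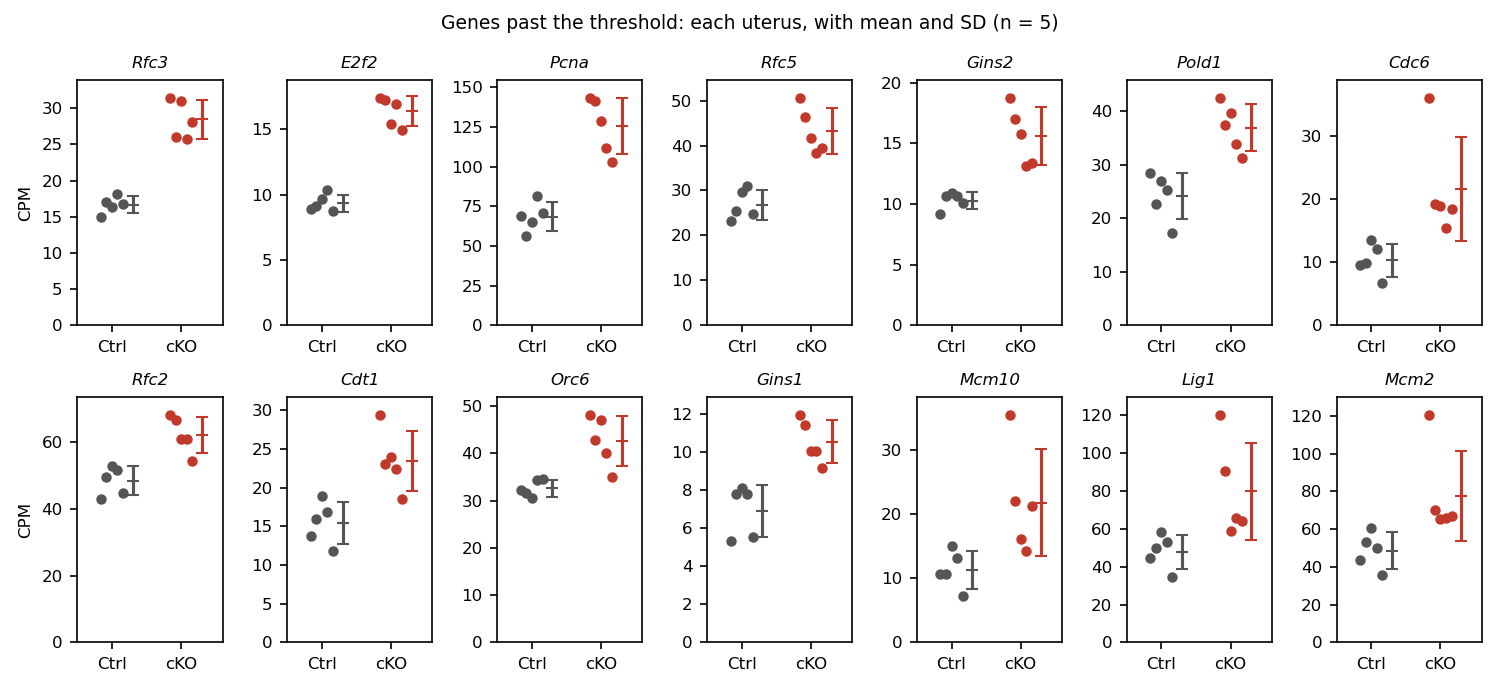
Each panel is 1 of the 14 genes that rose, ordered by adjusted p from *Rfc3*. Points are single uteri (grey: control, red: *Ltf* iCre/+ *Arid1a* f/f, labelled cKO) in CPM on an axis from 0, and the dash and bar are the mean and SD of 5. *Rfc3*, *E2f2* and *Pcna* show a clear gap between the groups, whereas *Cdt1* and *Mcm10* overlap.

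None of the 4 nucleotide supply genes was called by edgeR or by DESeq2, and their median log2 fold change was 0.49. *Rrm2*, the regulated small subunit of ribonucleotide reductase, had their highest length-scaled control level (13.5 RPKM) and was at 31.9, 37.3, 43.3, 41.9 and 32.3 CPM in the controls and 53.3, 71.9, 43.1, 43.5 and 31.4 CPM in the cKO uteri. cKO uterus 2 was the highest of all 10 and cKO uterus 5 the lowest, and its log2 fold change of 0.38 (standard error 0.19) had an edgeR adjusted p of 0.234 and an exact permutation p of 0.151. *Rrm1*, the large subunit, ran from 82.1 to 131 CPM in the controls and was at 292, 191, 117, 112 and 138 CPM in the cKO uteri (log2 fold change 0.66, edgeR adjusted p = 0.118). *Tk1*, the salvage kinase for thymidine, was at 18.2 to 25.1 CPM in the controls and at 46.6, 47.4, 26.9, 23.7 and 20.3 CPM in the cKO uteri (0.61, edgeR adjusted p = 0.13). *Tyms*, which makes thymidylate, was at 39.2 to 53.2 CPM in the controls and at 63.5, 75.8, 51.2, 48.7 and 41.1 CPM in the cKO uteri (0.32, edgeR adjusted p = 0.213). In all 4 genes cKO uteri 1 and 2 lay above every control, and in each of cKO uteri 3, 4 and 5 only 1 of the 4 genes did. At an unadjusted p under 0.05 were 2 of the 4, *Rrm1* and *Tk1*. Without cKO uterus 1 the log2 fold change of *Rrm1* was 0.36, and without cKO uterus 2 those of *Rrm2* and *Tyms* were 0.19 each. The median of the 4 was then 0.35 and 0.31, respectively, where that of the 44 was 0.35 and 0.38.

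Of the E2F genes, *E2f2* rose. It was at 8.87, 9.09, 9.67, 10.3 and 8.70 CPM in the controls and 17.4, 17.3, 15.4, 16.9 and 14.9 CPM in the cKO uteri. The groups lay far apart and the 5 cKO uteri were alike, also those in which the MCM genes were near the controls. Averages were 9.33 ± 0.666 and 16.4 ± 1.13 CPM (SD, n = 5), giving a log2 fold change of 0.81 (standard error 0.10, edgeR adjusted p = 0.00161), and the call held in all 10 fits that left out 1 uterus. *E2f3*, another activator and the one with the highest length-scaled control level (5.82 RPKM), was at 29.2, 31.6, 37.1, 31.1 and 28.9 CPM in the controls and 42.5, 30.9, 33.8, 34.3 and 36.5 CPM in the cKO uteri. Only cKO uterus 1 exceeded the highest control, and its log2 fold change of 0.17 (standard error 0.11) had an edgeR adjusted p of 0.336 and an exact permutation p of 0.151, and was 0.10 without cKO uterus 1. *E2f1* was at 9.42 to 14.6 CPM in the controls and at 18.9, 21.9, 17.9, 15.6 and 10.5 CPM in the cKO uteri, and only cKO uterus 5 lay within the control range (log2 fold change 0.49, edgeR adjusted p = 0.13, and 0.0278 without cKO uterus 5).

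E2F proteins bind short sites rich in G and C, and the letters TTTGGCGC, TTTCCCGC, TTTCGCGC and TTTGCCGC were searched for on both strands of the 250 bases before the RefSeq transcript starts (GRCm38.p6). A window was matched for 37 of the 44 genes, and 10 of the 37 (27.0%) held at least 1 of these letter strings, where 2.16% of the 27025 genes with a window did. Among the genes that rose, 2 of 11 with a window held one (*Rfc3* and *Cdc6*), and among the other genes 8 of 26, namely *Orc1*, *Orc3*, *Mcm5*, *Mcm6*, *Mcm7*, *Gins3*, *Pola1* and *E2f3*. That is 18.2% of the genes that rose and 30.8% of the others, and the difference was not tested. Of the 2 genes fitted below 0, *Orc3* held the letters and *Orc5* did not. The CCAAT box, searched on both strands in the same windows, was in 23 of the 37 (62.2%) and in 37.5% of all genes with a window. A match is a string of letters and not a measured binding site.

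The windows of the 2 genes that rose are shown because they bear the letters next to a measured increase, with the match in capitals. In *Rfc3* (chr5:151651209-151651458, minus strand) the match lies 10 to 3 bases before the RefSeq start, and in *Cdc6* (chr11:98907901-98908150, plus strand) it lies 138 to 131 bases before that start and reads on the opposite strand. Both matches lie inside the bounds of the GENCODE genes, since *Cdc6* starts at 98907801 and *Rfc3*, on the minus strand, at 151651242.
Rfc3: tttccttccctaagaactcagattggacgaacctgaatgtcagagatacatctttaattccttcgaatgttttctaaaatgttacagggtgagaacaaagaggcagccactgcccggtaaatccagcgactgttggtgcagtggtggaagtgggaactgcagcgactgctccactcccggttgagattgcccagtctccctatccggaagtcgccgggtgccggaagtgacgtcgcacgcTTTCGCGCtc
Cdc6: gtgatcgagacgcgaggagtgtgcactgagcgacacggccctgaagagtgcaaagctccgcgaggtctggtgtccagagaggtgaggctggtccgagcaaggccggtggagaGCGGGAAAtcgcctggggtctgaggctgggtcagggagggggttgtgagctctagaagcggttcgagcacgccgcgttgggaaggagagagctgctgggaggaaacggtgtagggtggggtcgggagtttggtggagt

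Shorter stretches of 4 genes that were not called are given for contrast, since their windows hold the same letters. *Mcm5* (chr8:75109340-75109379, plus strand) has a pair of overlapping matches on opposite strands, *Mcm6* (chr1:128359745-128359831, minus strand) has 3 matches, of which the first pair overlap, and *Mcm7* (chr5:138172025-138172064, minus strand) and *Orc3* (chr4:34614960-34614999, minus strand) have 1 each. The *Mcm7* stretch lies inside the GENCODE gene, which starts at 138172422 on the minus strand, and the other three lie before the start of theirs. The capitals mark the matches. The levels of these genes are given above: the log2 fold changes were 0.62 for *Mcm5*, 0.41 for *Mcm6*, 0.30 for *Mcm7* and −0.09 for *Orc3*.
Mcm5: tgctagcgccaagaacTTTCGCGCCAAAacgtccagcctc
Mcm6: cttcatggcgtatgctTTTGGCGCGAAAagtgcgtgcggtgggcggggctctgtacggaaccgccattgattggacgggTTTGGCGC
Mcm7: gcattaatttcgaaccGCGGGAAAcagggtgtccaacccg
Orc3: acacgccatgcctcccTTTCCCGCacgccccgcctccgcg

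Further genes of the replication pathway were read from a list of 42 others (accessory polymerase subunits, fork protection, clamp and chromatin factors). Of these, 16 rose (38.1%, where 5.19% of all tested genes were called higher) and 0 fell, with a median log2 fold change of 0.40. DESeq2 called 20 higher and 0 lower. When 1 uterus was left out, 9 (without control uterus 2) to 18 (without cKO uterus 5) rose. In these fits 594 of 25133 and 1236 of 25047 tested genes were called higher, respectively. The 6 with the lowest adjusted p were *Gmnn*, *Hells*, *Dna2*, *Dut*, *Pole2* and *Tipin*, and the calls of these 6 held in all 10 fits that left out 1 uterus. *Gmnn* encodes geminin, the inhibitor of CDT1 that blocks a second round of licensing, and was at 9.23, 11.1, 11.1, 10.9 and 11.6 CPM in the controls and 26.8, 20.8, 17.9, 18.3 and 22.5 CPM in the cKO uteri (log2 fold change 0.98, standard error 0.13, edgeR adjusted p = 0.00181). *Hells*, a chromatin remodeler of dividing cells, ran from 31.1 to 47.4 CPM in the controls and from 60.8 to 108 CPM in the cKO uteri (1.01, standard error 0.16, edgeR adjusted p = 0.0048). *Dna2*, a nuclease and helicase of fragment maturation, had a log2 fold change of 0.90 (edgeR adjusted p = 0.00544) and *Dut*, which keeps uracil out of DNA, one of 0.67 (0.00806). *Pole2*, a subunit of polymerase epsilon, stood at 0.61 (0.0107) and *Tipin*, of the fork protection complex, at 0.54 (0.0132). In these 6 genes, which were picked for their low adjusted p, every cKO uterus lay above every control. Of the whole list of 42 this held for 14 (33.3%), against 5.53% of all tested genes.

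Among 15 genes that act with E2F or control it, 4 rose (26.7%, against 5.19% of all tested genes) and 1 fell. DESeq2 called 7 higher and 2 lower, and the median log2 fold change by edgeR was 0.32. *Ccne1*, the cyclin that drives entry into S phase, was at 6.53, 8.24, 10.1, 8.05 and 6.46 CPM in the controls and 16.6, 15.8, 16.1, 11.9 and 12.9 CPM in the cKO uteri (log2 fold change 0.89, standard error 0.16, edgeR adjusted p = 0.00682), and its call held in all 10 fits that left out 1 uterus. *Rbl1*, the pocket protein p107, had a log2 fold change of 0.46 (edgeR adjusted p = 0.0219) and *Cdc25a*, a phosphatase that activates cyclin-dependent kinases, one of 0.45 (0.0242). The E2F partners went opposite ways: *Tfdp1* was higher by 0.43 (0.0358) and *Tfdp2* lower by −0.36 (0.0412) on the log2 scale. Without control uterus 2, 1 of these 15 genes was called, in a fit that called 1204 of 25133 tested genes. *Rbl1* was called in 8 of the 10 fits (not without control uterus 2 or 5), *Cdc25a* in 7 (not without control uterus 2, 4 or 5), *Tfdp1* in 5 (not without control uterus 1, 2, 4 or 5 or cKO uterus 2) and *Tfdp2* in 2 (only without cKO uterus 3 or 4), with the highest adjusted p at 0.0592, 0.0665, 0.0827 and 0.0922, respectively.

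Of 18 mitosis genes none was called by edgeR, with 5 at an unadjusted p under 0.05 and 1 called higher by DESeq2, and none was called in the 10 fits that left out 1 uterus. All 18 were fitted above 0, with a median log2 fold change of 0.42. That median was 0.20 without cKO uterus 1 and 0.23 without cKO uterus 2, where the median of the 44 replication genes was 0.35 and 0.38. The cKO uteri differed in these genes: all 18 lay above every control in cKO uteri 1 and 2, none did in cKO uteri 3 and 4, and 9 did in cKO uterus 5. The share of all tested genes above every control in each of these uteri was not counted. Their median deviation from the control mean was 0.99 and 0.89 on the log2 scale in cKO uteri 1 and 2, −0.32 and −0.26 in cKO uteri 3 and 4, and 0.19 in cKO uterus 5, while the controls ran from −0.30 to 0.28. In cKO uteri 3 and 4 the 44 replication genes were above the control mean by a median of 0.40 and 0.18. The controls ran from −0.15 to 0.22 in those 44 genes, so that cKO uterus 4 lay within their range. *Mki67*, the usual marker of proliferating cells, was at 251, 184, 290, 230 and 174 CPM in the controls and 357, 372, 152, 138 and 188 CPM in the cKO uteri (log2 fold change 0.10, standard error 0.29, edgeR adjusted p = 0.874). Whether replication genes and mitosis genes respond differently was not tested.

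**Figure D4:**
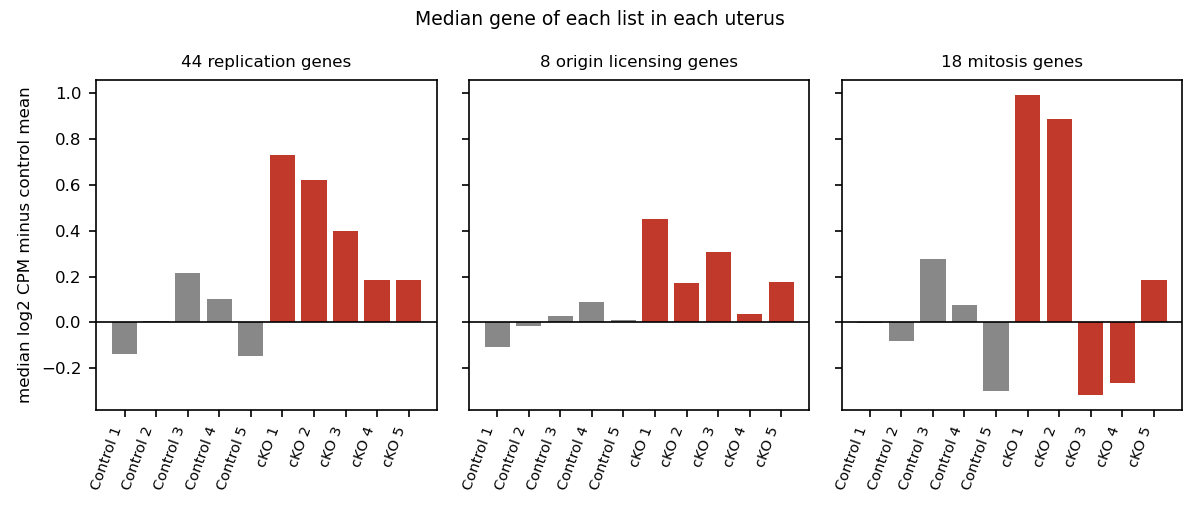
Bars give, for each uterus (grey: control, red: *Ltf* iCre/+ *Arid1a* f/f, labelled cKO), the median over a list of the log2 CPM minus the control mean, for the 44 replication genes, the 8 licensing genes and the 18 mitosis genes. The replication median is above 0 in all 5 cKO uteri (0.18 to 0.73), with cKO uteri 4 and 5 inside the control range (−0.15 to 0.22). The mitosis median is 0.99 and 0.89 in cKO uteri 1 and 2 and below 0 in cKO uteri 3 and 4.

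Side by side, the median log2 fold changes of the roles were 0.23 for licensing, 0.58 for the helicase, 0.44 for the fork, 0.49 for nucleotide supply and 0.49 for E2F, and their differences were not tested. Summed over its genes, licensing went from 267 ± 11.4 to 302 ± 18.7 CPM, the helicase from 540 ± 75.9 to 757 ± 177 CPM, the fork from 617 ± 63.9 to 831 ± 132 CPM, nucleotide supply from 212 ± 28.3 to 308 ± 106 CPM and E2F from 53.0 ± 5.61 to 68.9 ± 6.25 CPM (SD, n = 5 each). The sums of the licensing, fork and E2F genes were separated only narrowly between the groups. For licensing, the highest control was at 277 CPM and the lowest cKO uterus at 283 CPM. These values were 689 and 695 CPM for the fork and 61.3 and 61.9 CPM for E2F. The helicase sums overlapped (459 to 644 and 633 to 1062 CPM). So did those of nucleotide supply (177 to 245 and 228 to 456 CPM). By the median log2 deviation from the control mean, the groups overlapped in every role. Highest control and lowest cKO medians were 0.09 and 0.04 (licensing), 0.18 and 0.15 (fork) and 0.24 and 0.21 (E2F).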

How the data were processed

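RNA from whole uterine tissue of 10 mice at GD 3.5, taken from part of each uterus, was sequenced as paired 50-base reads. Per the labels and the study's methods, the authors trimmed reads (cutadapt 1.18, Trim Galore 0.6.4), checked them with FastQC 0.11.9, aligned them to GRCm38 with STAR 2.7.3a and deposited STAR's raw gene counts in 1 table, which was the only measurement used. The annotation release and strand column are not given in the sources used here. Gene names came from GENCODE M21 (45143 of 45706 identifiers matched).

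Genes averaging 1 count or more per library were tested with edgeR 4.0.16 (TMM, quasi-likelihood, genotype only, R 4.3.3) in place of the study's DESeq2, here an alternative (version 1.42.0). Adjusted p were by Benjamini-Hochberg, with a threshold of 0.05. The standard error is the log2 fold change over the root of F. Single genes also had two-sided exact permutation tests. RPKM used GENCODE exonic lengths. Near-identical copies were found with blastn 2.17.0. The script was tested on simulated data. No pair of libraries of the same genotype was a duplicate, and pairs across genotypes were not checked. Each library was taken as a separate mouse, as labelled. Depth was 59296537 to 72702411 counts, so that 3 counts were 0.0507 CPM at the smallest library, and such limits cover counting error only.

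The genes and lists were chosen with earlier results of these data known. Statistics in full are given for called genes and for the gene of each role with the highest control RPKM, the other genes by their fold changes, and of the 3 other pathway lists at most the 6 called genes with the lowest adjusted p. Alternatives were other scalings, filters, DESeq2, a replicate block, and leaving out libraries.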

Additional observations from a re-analysis of the deposited data

Results flagged for a closer look

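In 6 of the 88 groups of 5 values (44 genes in each genotype), 1 uterus lay further from the rest than Dixon's test allows at 95%, a test that by chance marks about 1 in 20 groups. All 6 were *Ltf* iCre/+ *Arid1a* f/f uterus 1, and 5 of the 6 genes encode subunits of the MCM ring. In that uterus *Cdc6* was at 35.9 CPM and the next highest of its group at 19.2 CPM. *Mcm2* was at 120 CPM with the next at 70.3 CPM, *Mcm3* at 151.0 CPM with the next at 82.6 CPM, and *Mcm4* at 150.1 CPM with the next at 104 CPM. *Mcm5* was at 121 CPM with the next at 77.0 CPM, and *Mcm7* at 123 CPM with the next at 97.7 CPM. The summed epithelial markers were also highest in this uterus, at 2799 CPM, and their part in these values was not tested.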

How the results depend on the processing

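DESeq2 in place of edgeR called 4103 genes where edgeR called 2438, and 22 of the 44 replication genes, among them 8 helicase and 10 fork genes; the 14 genes called by edgeR were all among the 22. Leaving out each uterus once, 1204 (without control uterus 2) to 2381 genes differed, and 1248 and 1414 did without control uterus 3 or 4. Called higher were 594 (without control uterus 2) to 1296 (without cKO uterus 2) genes. Of the replication genes 5 to 17 were called, with 7 without control uterus 1, 9 without control uterus 3, and 8 without control uterus 4, control uterus 5 or cKO uterus 1. By role this was 0 to 3 licensing, 1 to 4 helicase, 3 to 8 fork and 1 to 2 E2F genes, and the median log2 fold change was 0.35 to 0.51. Without cKO uteri 1 and 5 together, 1 helicase gene and 2 E2F genes were called, *Mcm2*, *Mcm10*, *Gins1* and *Lig1* were lost, *E2f1* was gained, and the log2 fold change of *Orc2* turned from 0.09 to −0.00032 (edgeR adjusted p = 0.999). Neither a nucleotide supply gene nor a lower replication gene was called under any of these settings. DESeq2 size factors within edgeR lost *Mcm2*, upper quartile scaling and no filter changed no count of replication genes, and edgeR's own filter added *Rfc4* and *Rpa2*.

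With the replicate number as a block (replicate block), 1704 genes, 8 replication genes and 1 helicase gene were called. Deviations of same-numbered uteri correlated at −0.10 to 0.17, and 2 of 5 numbers had their own partner as the closest. So few numbers cannot decide whether same-numbered uteri were paired. Over single replication genes, 666 values kept their side of the threshold under the alternatives, 61 fell short of it, 21 passed it and 1 changed sign. With 5 uteri a group and adjusted p near the threshold for *Mcm2*, *Lig1*, *Mcm10* and *Gins1*, these calls are the least firm.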
